A study of Mus musculus with 16 samples.

Results

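Oxidative phosphorylation is carried out by 5 protein complexes of the inner mitochondrial membrane, and the genes of their subunits lie in the nucleus and in the mitochondrial genome. Members were taken from the deposited expression tables by position or by name. All rows on the mitochondrial chromosome (chrM) were taken, together with the rows whose symbol begins as those of the nuclear-encoded subunits of NADH dehydrogenase (Nduf), succinate dehydrogenase (Sdh), the cytochrome bc1 complex (Uqcr), cytochrome c oxidase (Cox) and ATP synthase (Atp5), without the Ndufaf assembly factors. They were 92 of the 32989 genes of the tables, 9 on chrM and 83 in the nucleus. Of the nuclear-encoded genes, 35 belonged to complex I, 4 to complex II, 8 to complex III, 20 to complex IV and 16 to complex V.

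The RNA was poly(A)-selected from liver and kidney of 8 male C57BL/6J mice, which gave 16 libraries. Mice L63, L65, L86 and L104 lived in the LD condition, with light from 8:00 to 20:00 h. Mice A75, A91, A94 and A115 lived in the ADV condition, in which the light–dark cycle was advanced by 8 h every 4 days. Exposure lasted 85 weeks and ended at an age of 97 weeks, the animals showed no obvious weakness or injury, and organs were taken early in the dark phase. Values of 4 libraries are given below in this order of the mice. The strain carries no engineered allele by the labels, both organs came from the same animals, and a mouse is the replicate within each organ. The main fits of all 16 libraries treat the organs of a mouse as independent. The study used 2 sequencing providers, and its sources do not tie them to libraries. A sequencing batch can therefore not be told apart from the light condition or from the organ.

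Complexes I and II pass electrons from NADH and succinate to ubiquinone, complex III passes them on to cytochrome c, complex IV reduces oxygen, and complex V uses the resulting proton gradient to make ATP. Complex II is built from nuclear genes, whereas the others combine nuclear-encoded subunits with a few core subunits encoded by mitochondrial DNA. Mitochondrial DNA is transcribed into long precursors, which are cut and mostly polyadenylated, and for this reason its messages enter poly(A)-selected libraries. Kidney tubules, which reabsorb salts and solutes against gradients, are among the tissues most dependent on this pathway, and hepatocytes are rich in mitochondria as well.

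Between 21092501 and 24285055 fragments on genes per liver library and between 15688495 and 18043306 per kidney library underlie the values, and the nuclear-encoded members held between 175475 and 399698 of them. Levels are FPKM, fragments scaled to the length of the exons and to the fragments of the library, which is a scale per length. Liver libraries held hepatocyte markers at a summed level of 57190 to 70880 FPKM, and the kidney libraries held tubule and podocyte markers, so that the organ labels held. Libraries A115 kidney and both organs of A94 stood apart from the others. A115 kidney was the lowest of the 8 kidneys in 55.4% of all genes tested, and the summed level of the 4 markers of the convoluted proximal tubule was 367 FPKM there, against 1097 to 1287 FPKM in the LD kidneys and 1589 to 1921 FPKM in the other ADV kidneys. Thick ascending limb, distal convoluted tubule, collecting duct and podocyte markers were likewise lower in A115 than in every other kidney. A94 liver was the highest of the 8 livers in 49.7% of all genes tested, and its 5 leukocyte markers summed to 45.2 FPKM, against 2.42 to 4.18 FPKM in the LD livers. This liver also held traces of kidney markers. Umod was at 1.34 FPKM and Pvalb at 0.294 FPKM, against at most 0.0158 and 0 FPKM in the other livers. The origin of these traces was not tested. A94 kidney held leukocyte markers at 56.5 FPKM, against 4.94 to 8.19 FPKM in the LD kidneys and 5.71 to 10.7 FPKM in the other ADV kidneys, and its 4 macrophage markers summed to 45.6 FPKM, against 11.8 to 22.2 FPKM in the LD kidneys. In whole organs, fewer cells of a type and less RNA per cell cannot be told apart.

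The 9 chrM rows did not correspond to single genes in every case. By overlap with the GENCODE annotation of GRCm38, 1 row each held most of mt-Rnr1, mt-Nd2, mt-Co1 and mt-Co2, and the remaining rows on the heavy-strand side held pairs, namely mt-Rnr2 with mt-Nd1, mt-Atp8 with mt-Atp6, mt-Nd4l with mt-Nd4, and the end of mt-Nd5 with mt-Cytb. The ninth row ran antisense to mt-Rnr2. No row covered mt-Co3, mt-Nd3 or mt-Nd6 in its own sense, and the light-strand gene mt-Nd6 lies opposite the row of mt-Nd5 and mt-Cytb. Whether the authors counted fragments by strand is not given in the sources used here. The mean of the antisense row was 1.72 FPKM in the LD livers and 7.01 FPKM in the LD kidneys. The overlapping row of mt-Rnr2 and mt-Nd1 was at 2986 and 9014 FPKM, so that its reads were mostly not counted in the antisense row. Other overlapping rows were not examined for this. The rows of mt-Rnr1 and mt-Rnr2 hold ribosomal RNA, and 7 rows hold protein genes.

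Rows of mt-Co1 and mt-Co2, which encode the catalytic core of complex IV, differed widely in level and in the share of their sequence that other transcripts also hold. The levels of mt-Co1 were 23716, 23164, 18392 and 20678 FPKM in the LD livers and 21228, 27457, 17188 and 21096 FPKM in the ADV livers. Those of mt-Co2 were 16.7, 18.05, 14.4 and 15.02 FPKM in the LD livers and 18.8, 18.2, 10.6 and 15.05 FPKM in the ADV livers. Although both genes encode parts of 1 enzyme, the mt-Co2 row lay far below the mt-Co1 row in each liver. Of the 585 windows of 100 bases in mt-Co2, 582 also occurred in a pseudogene transcript, as did 579 of 582 in mt-Atp6, 195 of 198 in mt-Nd4l, 777 of 1279 in mt-Nd4, 446 of 1446 in mt-Co1 and 30 of 939 in mt-Nd2, whereas mt-Rnr1, mt-Rnr2, mt-Nd1, mt-Nd5 and mt-Cytb shared 0. The authors removed reads with a mapping quality under 10, to which a read that fits several places equally well belongs. The part of this step in the level of the mt-Co2 row was not tested. A window of mt-Co2 and the same window of the pseudogene Gm28661 are shown in lower case because they are identical, as were all 681 bases that the genes share. The first is at chrM:7313-7412 on the plus strand and the second at chr1:24615166-24615265 on the minus strand (GRCm38).

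mt-Co2: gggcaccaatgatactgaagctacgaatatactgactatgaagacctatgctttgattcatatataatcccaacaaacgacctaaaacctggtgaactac
Gm28661: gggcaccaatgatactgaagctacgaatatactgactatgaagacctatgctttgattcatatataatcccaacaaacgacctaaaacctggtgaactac

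No base of this stretch distinguishes the copies, and the rows of mt-Co2, mt-Atp8/mt-Atp6 and mt-Nd4l/mt-Nd4, and in part that of mt-Co1, are uncertain for this reason wherever they are given below. The chromosome 1 row BC069931, which lies over copies of mt-Atp6 and mt-Co3, was at 338.1 FPKM in A115 kidney and at 54.2 to 92.3 FPKM in the LD kidneys. The mt-Atp8/mt-Atp6 row was at 119, 91.8, 69.1 and 79.3 FPKM in the LD kidneys and 22.4, 79.7, 53.9 and 371 FPKM in the ADV kidneys, and in both rows A115 was the highest kidney.

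Fragments on chrM took a larger share of the kidney libraries than of the liver libraries. In the LD livers the share was 8.81%, 8.39%, 6.81% and 7.89% of the fragments on genes, and in the ADV livers 7.92%, 9.52%, 5.84% and 8.09%. In the LD kidneys it was 17.96%, 18.02%, 15.7% and 16.2%, and in the ADV kidneys 10.7%, 13.1%, 9.43% and 33.8%. The ADV livers spanned the LD livers on both sides, whereas 3 ADV kidneys lay below every LD kidney and A115 lay above all libraries. As means this was 7.97% ± 0.862 and 7.84% ± 1.52 (SD, n = 4) in LD and ADV livers, and 17.0% ± 1.18 and 16.8% ± 11.4 (SD, n = 4) in LD and ADV kidneys. The 95% Wilson interval of a single library was at most 0.0222 percentage points to either side, and covers counting error only.

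Nuclear-encoded members followed another order. Of the fragments off chrM, they took 1.15%, 1.23%, 1.11% and 1.13% in the LD livers and 0.998%, 1.24%, 1.18% and 1.01% in the ADV livers. The corresponding values were 2.10%, 2.16%, 2.14% and 2.19% in the LD kidneys and 2.49%, 2.46%, 2.45% and 1.51% in the ADV kidneys. Every kidney lay above every liver, 3 ADV kidneys lay above the LD kidneys, and A115 lay below them. Interval half-widths were at most 0.00811 percentage points.

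**Figure D1:**
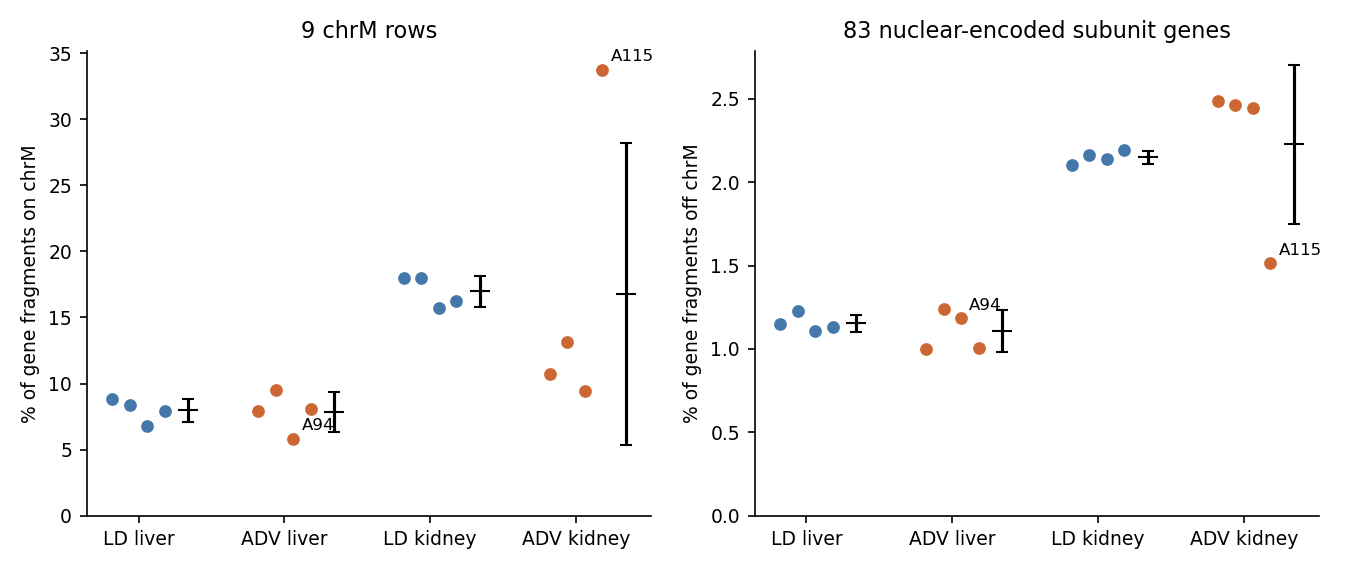
Share of gene fragments on the 9 chrM rows (left, %) and share of the fragments off chrM that fell on the 83 nuclear-encoded subunit genes (right, %), by group, with 1 point per library and mean ± SD beside the points. A115 kidney stands at 33.8% and 1.51%, opposite in direction to the other ADV kidneys on both axes.

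The relation between both genomes was expressed per library as a balance, the mean log2(FPKM + 0.1) of the 7 chrM rows with protein genes minus the mean of the 76 nuclear-encoded members tested in both organs. It is a score over the members and is given without a test. Each of the 7 rows weighs the same in it, the rows called uncertain above included. In the row of mt-Rnr2 and mt-Nd1, 1527 of 2554 bases lie over ribosomal RNA. This row is also part of the form with mt-Nd5/mt-Cytb below. In liver it was 3.73, 3.603, 3.42 and 3.61 in the LD mice and 3.81, 3.65, 2.81 and 3.71 in the ADV mice. Means were 3.59 ± 0.125 and 3.50 ± 0.458 (SD, n = 4), a difference of −0.10 (SE 0.24). A94 stood below the LD range, and the place of the other ADV livers depended on how the balance was formed. In the mean over genes A75 stood above the LD range and A91 and A115 inside it. In the median over genes all 3 stood above it, at 5.15, 5.07 and 5.25 against 4.70 to 4.96, and the difference was 0.17 (SE 0.17). With only the rows of mt-Rnr2/mt-Nd1 and mt-Nd5/mt-Cytb, A115 at 5.74 and A75 at 5.63 stood above the LD range of 5.25 to 5.62, and the difference was −0.02 (SE 0.23). For the mean over genes, the difference without A94 was 0.13, so that the sign changed with this library and with the form of the balance.

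In kidney the balance was 4.62, 4.47, 4.15 and 4.203 in the LD mice and 2.94, 3.76, 3.11 and 6.83 in the ADV mice. The means, 4.36 ± 0.221 and 4.16 ± 1.81 (SD, n = 4), differed by −0.20 (SE 0.91), and without A115 the ADV mean was 3.27 ± 0.430 (SD, n = 3) and the difference −1.09 (SE 0.27). All ADV kidneys thus lay outside the LD range, 3 of them below it and A115 above it, in each of the 7 forms of the balance computed. Within the mouse, kidney exceeded liver by 0.89, 0.87, 0.73 and 0.59 in the LD mice, and the difference was −0.86, 0.11, 0.30 and 3.12 in the ADV mice. Dividing each value by the share of fragments off chrM leaves the balance nearly as it is, since both of its terms are divided alike.

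**Figure D2:**
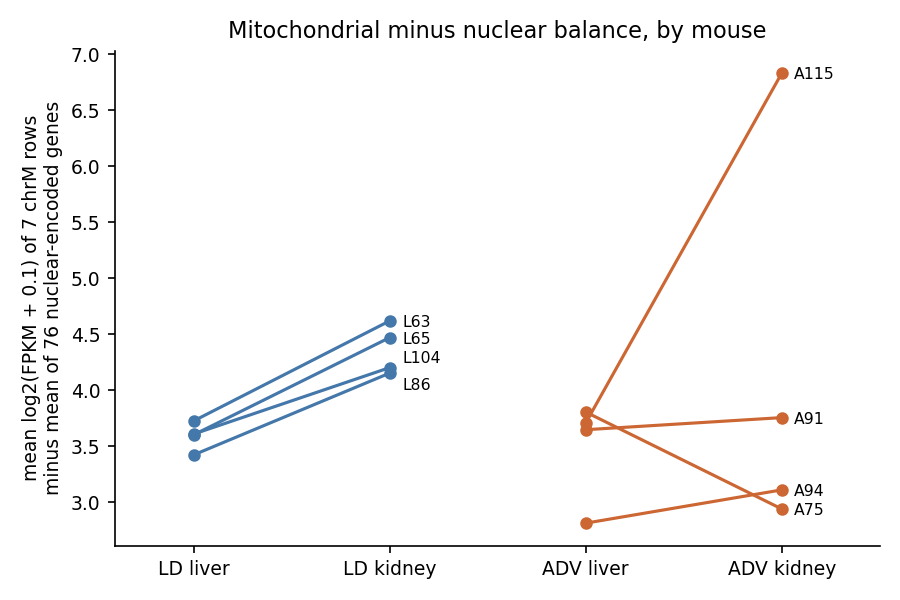
Mitochondrial minus nuclear balance on the log2 scale by organ and condition, with a line joining liver and kidney of each mouse. The 4 LD lines all run upward, from between 3.42 and 3.73 to between 4.15 and 4.62, whereas the ADV lines end between 2.94 and 6.83.

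In the liver, none of the 85 members tested passed the test of ADV against LD. The test was limma on log2(FPKM + 0.1) across the 12835 genes above the expression filter, with Benjamini-Hochberg adjustment over all of them, and 0 genes rose and 1 fell, which is 0.00779% of those tested. The smallest adjusted p of a member was 0.363. At an unadjusted p under 0.05, 1 nuclear-encoded member was higher and 3 were lower, against 8.65% and 3.13% of all genes, and 0 chrM rows were. The higher one, Ndufa4l2, passed the expression filter only through the ADV group. Medians of the log2 fold change were −0.01 for the nuclear-encoded members, −0.19 for the chrM rows and 0.10 for all genes. After rescaling to the genes off chrM the count was again 0, with 0% of all genes higher and 0.00779% lower. Leaving out 1 mouse at a time, 0 members were called each time, and the number of nuclear-encoded members that were higher ran from 24 of 76 without A94 to 51 of 76 without A115, against 36 of 76 with all. The median of the chrM rows was −0.02 without A94. Scaled by the median ratio, 21 of 76 nuclear-encoded members were higher. In that limma fit, 1 was higher and 8 lower at an unadjusted p under 0.05, beside 841 and 860 of all 12835 genes. After the correction for G+C content described below, 21 of 76 were higher as well.

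In complex I, 17 of 35 members were higher and 18 lower in the ADV livers, and 10 were higher and 25 lower after the correction for G+C content. Ndufv1, the core subunit that takes up NADH, was at 73.1, 79.2, 73.98 and 76.6 FPKM in the LD livers and 58.1, 71.4, 71.8 and 57.2 FPKM in the ADV livers. Its ADV values lay below all LD values. The log2 fold change was −0.24 (SE 0.10, adjusted p = 0.419). For groups of 4 that do not overlap, an exact permutation p is always 0.0286, the smallest this design allows, and it is not repeated below. Ndufa1, an accessory subunit of the membrane arm, showed the largest increase of the complex at 0.22 (SE 0.12), with groups that overlapped. Ndufa6, the most abundant of the complex in liver, was at 205, 210.0, 200.1 and 169.8 FPKM in the LD livers and 191, 219, 189.8 and 188 FPKM in the ADV livers, and its log2 fold change was 0.01 (SE 0.10).

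All 4 members of complex II, which oxidizes succinate and is wholly nuclear-encoded, had lower means in the ADV livers, and 0 passed the test. Sdhb, its iron–sulfur subunit, was at 150.4, 167, 137 and 145 FPKM in the LD livers and 112, 149, 137 and 108 FPKM in the ADV livers, and its log2 fold change was −0.25 (SE 0.12, adjusted p = 0.451). The membrane anchor Sdhd was at 183, 178, 161 and 162 FPKM in the LD livers and 169, 187, 158 and 159 FPKM in the ADV livers. In complex III, 4 of 8 were higher and 4 lower. Uqcrc1, a core protein of the complex, was at 97.5, 108, 100.5 and 105 FPKM in the LD livers and 65.3, 94.8, 98.04 and 77.2 FPKM in the ADV livers, with a log2 fold change of −0.31 (SE 0.13, adjusted p = 0.412). A94 lay just above the lowest LD liver, so that the groups overlapped by this mouse. Uqcrb, a small subunit near the ubiquinone site, differed by −0.01 (SE 0.10), and the hinge protein Uqcrh by 0.17 (SE 0.13).

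In complex IV, 8 of 13 tested were higher and 5 lower. Ndufa4, once assigned to complex I and now counted with complex IV, was the most abundant at 477, 511, 466 and 447 FPKM in the LD livers and 473, 568, 532 and 475 FPKM in the ADV livers. Its paralog Ndufa4l2, which hypoxia is known to induce, was at 0.448, 0.169, 0.437 and 0.554 FPKM in the LD livers and 0.758, 0.609, 2.59 and 0.922 FPKM in the ADV livers. These low values did not overlap, and A94 was far above the others. Multiplied by exon length in kilobases, the mean was 0.385 in the LD livers and 1.17 in the ADV livers, against the filter of 0.5, so that the gene was tested because of its ADV values and its log2 fold change of 1.25 (SE 0.44) is a description. In A94 the leukocyte markers were at the 45.2 FPKM given above and the 4 fibroblast and stellate cell markers summed to 293 FPKM, against 107.5 to 123 FPKM in the LD livers and 150.5 to 190.5 FPKM in the other ADV livers. The 4 macrophage markers summed to 60.6, 51.4, 173.1 and 57.0 FPKM in the ADV livers, all above the 36.4 to 48.6 FPKM of the LD livers. The part of these markers in the result for Ndufa4l2 and in the other liver results was not tested.

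Complex V had 7 of 16 members higher and 9 lower. Atp5a1 and Atp5b encode the alpha and beta subunits of the catalytic head. Atp5a1 was at 378, 396, 365 and 397 FPKM in the LD livers and 307, 358, 351 and 297 FPKM in the ADV livers, and every ADV liver lay below the LD livers. Its log2 fold change was −0.23 (SE 0.10, adjusted p = 0.419). Atp5b was at 548, 604, 583 and 597 FPKM in the LD livers and 437, 566, 547 and 471 FPKM in the ADV livers, where the groups overlapped and the log2 fold change was −0.21 (SE 0.12, adjusted p = 0.474). The largest increase of the complex was that of Atp5e, the epsilon subunit of the stalk, with 0.18 (SE 0.16). Across both genomes, groups that did not overlap were thus found for Ndufv1 and Atp5a1 downward and, upward, for Ndufa4l2, which its ADV values brought past the filter. In the order upward and downward this was found in 6.94% and 1.89% of all genes tested.

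The chrM rows of the liver had a lower mean log2 value in ADV in 7 of 9 cases, and A94 was the lowest of the 8 livers in all 9. The row of mt-Nd2, a proton-pumping subunit of complex I, was at 7454, 7082, 6799 and 7116 FPKM in the LD livers and 8054, 8311, 4893 and 7313 FPKM in the ADV livers. The uncertain row of mt-Nd4l and mt-Nd4, of the same pumping arm, was at 3278, 3120.1, 2395 and 2863 FPKM in the LD livers and 2829.9, 2847, 1873 and 2766 FPKM in the ADV livers. Without A94 the ADV livers lay inside or above the LD range in both rows. Log2 fold changes were −0.02 (SE 0.21) and −0.19 (SE 0.19), and they lay between −0.47 (SE 0.42) for the antisense row and 0.18 (SE 0.16) for the row of mt-Rnr2 and mt-Nd1. The uncertain rows of mt-Co2 and mt-Atp8/mt-Atp6 gave −0.07 (SE 0.18) and −0.31 (SE 0.24).

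In the kidney, none of the 87 members tested passed the test of ADV against LD when all 8 libraries were used. By the same test across 14452 genes, 0% of all genes were called, in either direction, and the adjusted p of each member was 0.9999. At an unadjusted p under 0.05, 1 member was higher and 0 were lower, against 1.75% and 1.35% of all genes. The median log2 fold change was −0.03 for the 78 nuclear-encoded members tested, −0.18 for the chrM rows and −0.02 for all genes. After rescaling to the genes off chrM the count was again 0. These means join 3 ADV libraries that lay on one side of the LD kidneys with A115, which lay on the other side.

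This opposition was visible in most members. Of the 78 nuclear-encoded members, 68 were lower in A115 than in every LD kidney, 4 lay within the LD range and 6 were higher, while 59 were above every LD kidney in A75, 56 in A91 and 65 in A94. Of all genes tested, 59.1% were below and 24.0% above every LD kidney in A115, and 51.9%, 34.03% and 52.9% were above in A75, A91 and A94. A115 was the lowest of the 8 kidneys in 64 of the 78, beside 55.4% of all genes, and the highest in 8 of the 9 chrM rows, beside 19.1% of all genes. The mt-Nd2 row was at 20329.6, 19492, 18554 and 16698 FPKM in the LD kidneys and 8963, 11324, 7700.2 and 49135 FPKM in the ADV kidneys. The row of mt-Nd5 and mt-Cytb, which shares no window with other transcripts and includes the chrM-encoded subunit of complex III, was at 18678, 19016, 16406 and 17458 FPKM in the LD kidneys and 11055, 13888, 9087 and 34132 FPKM in the ADV kidneys. In both rows 3 ADV kidneys lay below the LD kidneys and A115 lay above them.

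Complex I in the kidney had 15 of 35 members higher and 20 lower. The most abundant, Ndufb8, was at 257, 266, 299.9 and 299 FPKM in the LD kidneys and 416, 359, 395 and 31.3 FPKM in the ADV kidneys. Ndufa7 was at 89.4, 89.5, 124 and 101 FPKM in the LD kidneys and 155, 138, 153 and 7.89 FPKM in the ADV kidneys. In both accessory subunits the ADV libraries lay above the LD libraries except A115, which lay far below them. Log2 fold changes over all 8 libraries were −0.43 (SE 0.79) and −0.49 (SE 0.92), and the sign of both was set by A115. Ndufa6 was at 227, 242, 228 and 237 FPKM in the LD kidneys and 354, 255, 283 and 402 FPKM in the ADV kidneys, the only member whose ADV kidneys, A115 included, all exceeded the LD kidneys, and its log2 fold change was 0.44 (SE 0.18, adjusted p = 0.9999). Ndufc1, with the largest increase of the complex, gave 0.48 (SE 0.22), with overlapping groups. Ndufa10, Atp5c1 and Uqcrc2, named after their values were seen, were below every LD kidney in all 4 ADV kidneys, by −0.29 (SE 0.15), −0.14 (SE 0.13) and −0.28 (SE 0.15). Non-overlap was found in 0.962% of all genes upward and in 1.83% downward.

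In complex II, Sdhc and Sdhd, which anchor the enzyme in the membrane, both had A115 apart from the other kidneys. Sdhc was at 170.2, 173, 187 and 184 FPKM in the LD kidneys and 222, 236, 237 and 39.003 FPKM in the ADV kidneys. Sdhd was at 135, 143, 147 and 168 FPKM in the LD kidneys and 228, 227, 224 and 50.9 FPKM in the ADV kidneys. In both genes the other 3 ADV kidneys lay close together above the LD kidneys, and A115 lay below the LD kidneys. Log2 fold changes over all libraries were −0.26 (SE 0.56) and 0.08 (SE 0.48), and Sdhb gave 0.02 (SE 0.20).

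Complex III had 2 of 8 members higher and 6 lower. Uqcr11, a small accessory subunit, was at 97.6, 138, 148 and 179.9 FPKM in the LD kidneys and 359.8, 300.2, 347 and 4.46 FPKM in the ADV kidneys. Uqcrb, near the ubiquinone site, was at 337, 347, 337 and 352 FPKM in the LD kidneys and 392, 326, 346 and 842 FPKM in the ADV kidneys. A115 was the lowest kidney in Uqcr11 and the highest in Uqcrb, although both proteins belong to the same complex. Over all libraries the log2 fold changes were −0.27 (SE 1.34) and 0.36 (SE 0.30). Uqcrh, the most abundant of the complex, gave 0.04 (SE 0.18), and Uqcrc1 gave −0.44 (SE 0.73).

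In complex IV, 11 of 15 tested were higher and 4 lower. Cox8a, its smallest nuclear-encoded subunit, was at 265, 321, 358 and 385 FPKM in the LD kidneys and 825, 610.0, 687 and 39.6 FPKM in the ADV kidneys. Cox5b was at 262, 257, 310.2 and 303 FPKM in the LD kidneys and 628, 415, 492 and 187 FPKM in the ADV kidneys. Cox4i1, the most abundant of the complex in kidney, was at 717, 697, 809.8 and 683 FPKM in the LD kidneys and 843, 761, 859 and 277 FPKM in the ADV kidneys. In Cox8a and Cox5b the other 3 ADV kidneys lay above the LD kidneys, in Cox4i1 A91 lay among them, and A115 was below the LD kidneys in all 3 genes. Log2 fold changes were 0.06 (SE 0.91), 0.48 (SE 0.35) and −0.21 (SE 0.37).

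Complex V had 6 of 16 members higher and 10 lower. Atp5b was at 1254, 1264, 1275 and 1267 FPKM in the LD kidneys and 1340.1, 1479.7, 1445 and 383 FPKM in the ADV kidneys. Atp5g1, 1 of 3 genes for the ring-forming c subunit, was at 90.9, 122, 139 and 140.2 FPKM in the LD kidneys and 219, 230.4, 272 and 4.35 FPKM in the ADV kidneys. Atp5k, which helps ATP synthase pair, was at 111, 131, 143 and 238 FPKM in the LD kidneys and 312, 291, 335 and 82.1 FPKM in the ADV kidneys. In all 3 genes A75, A91 and A94 lay above the LD kidneys and A115 lay below them, by the widest margin in Atp5g1. Log2 fold changes were −0.31 (SE 0.43), −0.46 (SE 1.25) and 0.59 (SE 0.48).

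**Figure D3:**
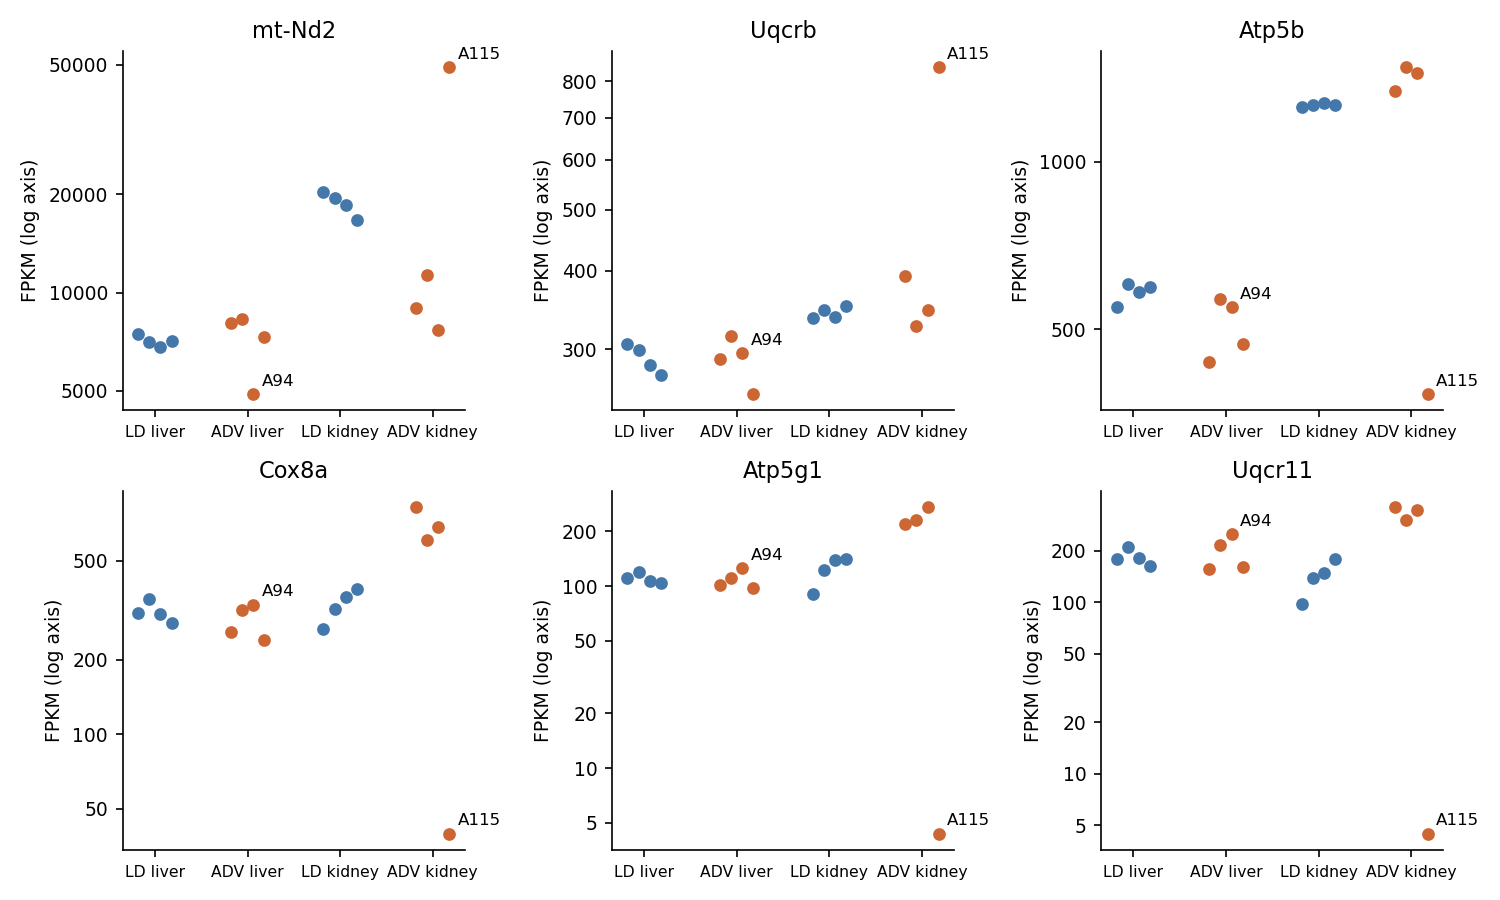
FPKM of 6 members on log axes, 1 point per library, by organ and condition, with A94 liver and A115 kidney marked. A115 is the highest kidney in mt-Nd2 and Uqcrb (49135 and 842 FPKM) and the lowest in Atp5b, Cox8a, Atp5g1 and Uqcr11 (383, 39.6, 4.35 and 4.46 FPKM).

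Without A115, the 3 remaining ADV kidneys gave 34 nuclear-encoded members that rose and 0 that fell, out of 78. Across all genes 16.2% rose and 2.68% fell in this fit, and the medians of the log2 fold change were 0.37 for the nuclear-encoded members and 0.20 for all genes. Members that rose were 17 of 35 in complex I, 2 of 4 in complex II, 4 of 8 in complex III, 6 of 15 in complex IV and 5 of 16 in complex V. The largest increases were 1.28 (SE 0.19, adjusted p = 0.0109) for Uqcr11, 1.12 (SE 0.18, adjusted p = 0.012) for Cox6b2, 1.09 (SE 0.16, adjusted p = 0.0109) for Cox8a and 1.07 (SE 0.23, adjusted p = 0.0207) for Atp5k. Of the 9 chrM rows, mt-Nd2 fell, with a log2 fold change of −1.02 (SE 0.28, adjusted p = 0.0393), and 7 others had lower mean log2 values without passing the test. Of the 34 genes that rose, 33 were lower in A115 than in every LD kidney, so that the fourth ADV mouse went against them. Without A94 as well, which leaves 2 ADV kidneys, 16 nuclear-encoded members rose and 0 fell, against 3.72% and 0.242% of all genes, and 0 chrM rows passed. Markers of other cells moved in the same libraries. Beside the leukocyte markers of A94, the 3 erythroid markers summed to 594, 318 and 756 FPKM in A75, A91 and A94, against 136 to 323 FPKM in the LD kidneys. The fibroblast and stellate cell markers summed to 109.7, 41.9 and 124 FPKM, against 37.5 to 62.9 FPKM, and those of the convoluted proximal tubule lay above the LD kidneys in all 3, as given above. Collecting duct markers, at 150.1, 222 and 232 FPKM against 64.5 to 125 FPKM, and distal convoluted tubule markers, at 283, 222 and 183 FPKM against 146 to 171 FPKM, also lay above. Markers of the straight proximal tubule lay below in A75 and A94, at 347 and 373 FPKM against 526 to 758 FPKM, and within the LD range in A91, at 592 FPKM. Their part in the rise was not tested. Rescaled to the genes off chrM, 30 nuclear-encoded members rose and 0 fell, with 11.2% of all genes higher and 5.25% lower, and mt-Nd2 again fell.

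The G+C content of the transcripts moved with both sides of this contrast. Over the 14001 genes with a value in kidney, the slope of a library's deviation on G+C content was 0.55, 0.36 and 0.43 log2 units per 10 percentage points in A75, A91 and A94 and −1.31 in A115. It lay between −0.16 and 0.11 in the LD kidneys and, over 12535 genes, between −0.13 and 0.08 in the livers. Across the 78 nuclear-encoded members, Pearson's r between G+C content and deviation was 0.50, 0.38 and 0.47 in A75, A91 and A94 and −0.49 in A115. These members share the library and its preparation and are not independent. Without A115, 2 of the 13 members below 48% G+C rose, 12 of the 40 from 48% to 55% and 20 of the 25 above 55%. The shares of all genes that rose in these bins were not computed, so that these counts cannot be read as particular to the members. Above 55% G+C, the median deviation of all genes off chrM was 0.70, 0.41 and 0.66 in A75, A91 and A94. That of the members was 0.81, 0.47 and 0.61. The chrM rows, all between 35.0% and 39.9%, lie at the low end of the same axis.

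When a loess of the deviation on G+C content was taken off each library, 0 members passed without A115, with 0% of all genes called, and the smallest adjusted p of a member was 0.0829. At an unadjusted p under 0.05, 22 nuclear-encoded members were then higher and 7 lower, against 8.84% and 9.71% of all genes, and 0 chrM rows were. The median of the nuclear-encoded members was 0.09, with 50 of 78 higher, and that of the chrM rows was −0.29. Values for Uqcr11, Cox8a and mt-Nd2 were 0.64 (SE 0.14, adjusted p = 0.102), 0.47 (SE 0.11, adjusted p = 0.113) and −0.69 (SE 0.31, adjusted p = 0.275). The part of transcript composition in the contrast between these libraries was not tested further.

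The members of complex III were spread along this axis, and not in order of it. Uqcrq, at 50.2% G+C, was at −3.44 in A115 against the LD mean on the log2 scale, Uqcrc2, at 44.4%, at −0.62 and Uqcrh, at 49.9%, at −0.36. Of the 13 members below 48% G+C, Uqcrb alone was above 0 in A115, and their median was −0.41, beside −0.71 for the 40 members from 48% to 55% and −1.88 for the 25 above 55%. The whole coding sequence of Uqcr11 (chr10:80404169-80406745, minus strand) and the first 300 bases of that of Uqcrb (chr13:66900785-66905311, minus strand) are printed from the GENCODE transcripts of GRCm38, with every G and C in capitals, because these genes of 1 complex went to opposite ends in A115. They were picked for these values, and Uqcrb does not stand for the other members of low G+C content. Uqcr11 holds 60.7% G+C and Uqcrb 42.7% in the stretch shown.

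Uqcr11: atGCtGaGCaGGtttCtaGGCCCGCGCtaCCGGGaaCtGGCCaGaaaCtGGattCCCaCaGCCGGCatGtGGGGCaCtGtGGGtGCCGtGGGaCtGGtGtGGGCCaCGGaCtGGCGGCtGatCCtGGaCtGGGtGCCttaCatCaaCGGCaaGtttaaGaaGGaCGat
Uqcrb: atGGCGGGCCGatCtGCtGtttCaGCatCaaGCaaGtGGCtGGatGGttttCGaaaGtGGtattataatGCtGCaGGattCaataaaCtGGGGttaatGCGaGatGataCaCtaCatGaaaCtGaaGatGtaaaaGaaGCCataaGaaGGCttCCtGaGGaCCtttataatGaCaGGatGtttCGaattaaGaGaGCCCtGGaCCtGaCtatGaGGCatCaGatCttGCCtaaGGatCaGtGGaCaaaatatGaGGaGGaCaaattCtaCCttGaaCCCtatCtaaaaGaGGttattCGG

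Uqcr11 was at 4.46 FPKM in A115, beside an LD mean of 141 ± 33.9 FPKM (SD, n = 4), and Uqcrb at 842 FPKM, beside 343 ± 7.31 FPKM (SD, n = 4).

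**Figure D4:**
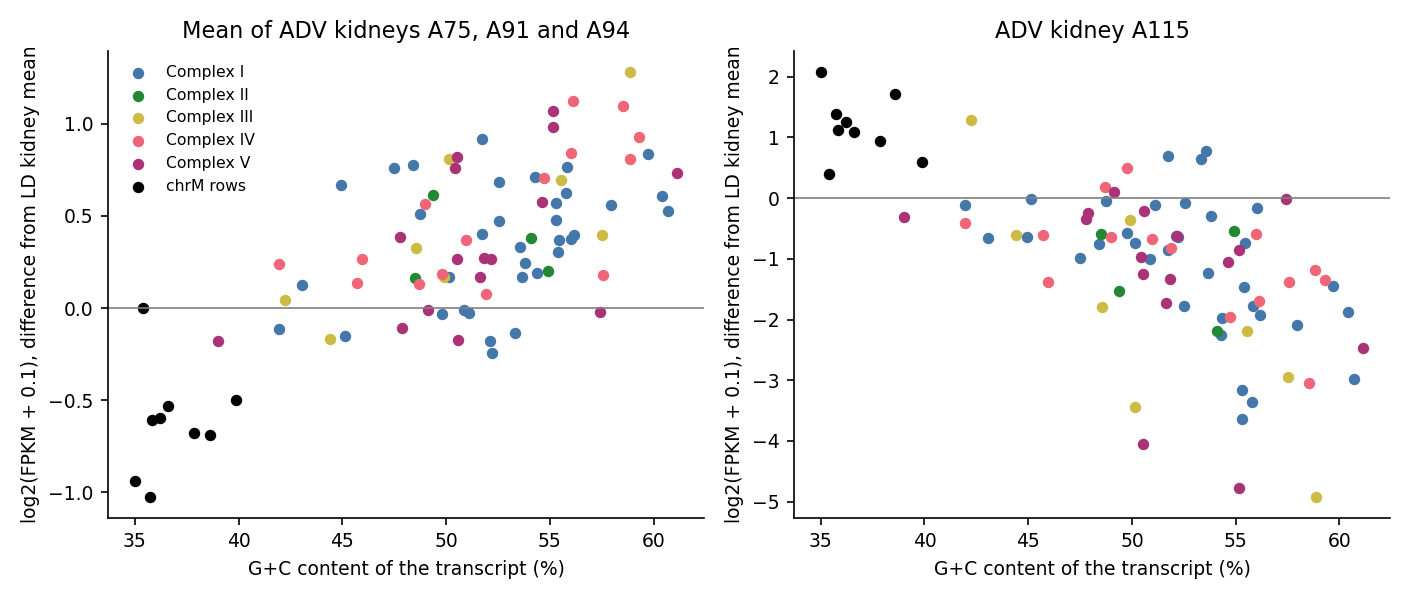
Deviation of each member tested in kidney from the LD kidney mean, in log2(FPKM + 0.1), against the G+C content of its transcript (%), coloured by complex, for the mean of A75, A91 and A94 (left) and for A115 (right). Vertical scales differ. Uqcr11, the lowest point on the right, is at 58.9% G+C, and the chrM rows stand below 40% on both panels.

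Between the organs, the number of members that passed as higher in the kidney depended on the scaling. Of the 78 nuclear-encoded members, 57 passed the test upward and 0 downward in a fit of all 16 libraries, and 8 of the 9 chrM rows did so upward. This compares with 61.9% higher and 13.2% lower among the 14968 genes tested, and the median log2 difference was 0.69 for the nuclear-encoded members, 1.47 for the chrM rows and 0.75 for all genes. Scaled by the median ratio instead, which brought the median of all genes to 0.03, 16 nuclear-encoded members and 3 chrM rows were higher and 14 nuclear-encoded members were lower, against 34.6% and 31% of all genes. Rescaled to the genes off chrM, 64 nuclear-encoded members and 8 chrM rows were higher and 0 lower, against 67.7% and 12.2%. Without mouse A115, 74 nuclear-encoded members and 8 chrM rows were higher and 0 lower, against 71.8% and 13.9%.

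By complex, those higher in kidney were 25 of 35 in complex I, 3 of 4 in complex II, 3 of 8 in complex III, 14 of 15 in complex IV and 12 of 16 in complex V, beside the 61.9% of all genes. Under the median ratio, 8 were higher and 4 lower in complex I, 1 and 1 in complex II, 0 and 2 in complex III, 5 and 3 in complex IV, and 2 and 4 in complex V. Without A115, 35 of 35, 3 of 4, 6 of 8, 15 of 15 and 15 of 16 were higher. Ndufb4, an accessory subunit of complex I, was at 22.97, 22.98, 21.003 and 20.8 FPKM in the LD livers and 20.5, 28.7, 25.6 and 23.4 FPKM in the ADV livers. In the kidney it was at 111, 102, 91.7 and 106 FPKM in the LD kidneys and 74.7, 90.4, 95.997 and 65.7 FPKM in the ADV kidneys. Every kidney lay above every liver, with a log2 difference of 1.97 (SE 0.10, adjusted p = 6.17e-11), and 1.20 (SE 0.11) under the median ratio. The uncertain row of mt-Nd4l and mt-Nd4 was at 8943, 9579, 8243 and 8484 FPKM in the LD kidneys and 5591, 7649.7, 5251 and 18792 FPKM in the ADV kidneys, and differed from the liver by 1.64 (SE 0.24, adjusted p = 2.01e-05). The chrM row that did not pass was that of mt-Co1, at 31098, 29660.1, 26151 and 26419.8 FPKM in the LD kidneys and 19744, 22609.7, 17884 and 42448 FPKM in the ADV kidneys, with a difference of 0.29 (SE 0.25, adjusted p = 0.302). Log2 differences of the rows of mt-Co2, mt-Atp8/mt-Atp6 and the antisense strand, which hold few fragments or shared sequence, were 2.12 (SE 0.33), 1.85 (SE 0.42) and 2.09 (SE 0.32). The row of mt-Rnr1 was at 951, 1273, 1471 and 1459.9 FPKM in the LD kidneys and 821, 1059, 664 and 2774 FPKM in the ADV kidneys and that of mt-Rnr2 and mt-Nd1 at 9225, 9559, 8452 and 8819.9 FPKM in the LD kidneys and 5789, 6809.9, 5355 and 21478 FPKM in the ADV kidneys.

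At the other end, no member passed as lower in the kidney on the FPKM scale, whereas 14 nuclear-encoded members did under the median ratio, Uqcrq among them with −1.27 (SE 0.41, adjusted p = 0.0126). Atp5g2, Uqcr11, Uqcrq, Sdhd and Ndufa7 had the lowest differences, −0.60 (SE 0.56), −0.58 (SE 0.71), −0.49 (SE 0.49), −0.16 (SE 0.26) and −0.15 (SE 0.49). Each of these means includes A115 kidney, and without that mouse the differences were −0.03 (SE 0.12), 0.15 (SE 0.14), 0.02 (SE 0.09), 0.10 (SE 0.07) and 0.34 (SE 0.09).

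**Figure D5:**
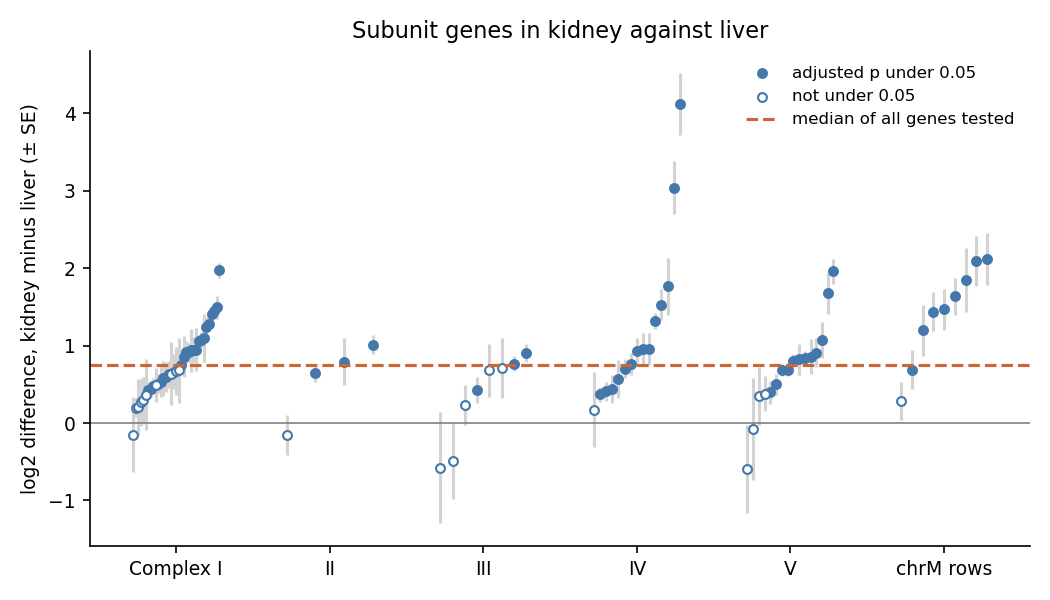
Log2 difference between kidney and liver, ± SE, of each member tested, sorted within its complex, over all 16 libraries. Filled points passed the test, and the dashed line at 0.75 is the median of all genes. Cox6b2 (4.12) and Cox7a1 (3.04) of complex IV, which were tested only because of their kidney values, lie farthest above it.

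Several subunits of complexes IV and V exist as isoforms that tissues use differently. Of the 83 nuclear-encoded members, 7 fell under the expression filter in liver and 5 in kidney, and all were isoforms of complex IV. Cox8c, Cox4i2, Cox7b2, Cox6a2 and Cox8b were under it in both organs, and Cox7a1 and Cox6b2 in liver. Cox6a2, Cox7a1 and Cox8b are known from heart and skeletal muscle, and Cox4i2 from the lung. Cox7a1 was at 1.02, 1.51, 1.79 and 1.13 FPKM in the LD livers and 2.12, 1.25, 0.911 and 1.25 FPKM in the ADV livers. In the kidney it was at 10.8, 11.2, 11.02 and 13.02 FPKM in the LD kidneys and 19.9, 18.2, 18.3 and 2.89 FPKM in the ADV kidneys. Every kidney lay above every liver, with a log2 difference of 3.04 (SE 0.34). Cox7a1 and Cox6b2 entered the test only through the kidney, where they are high, so that their differences are descriptions, although both are among the 57 counted above. The 5 striated muscle markers summed to at most 1.05 FPKM in any kidney, and Acta1 and Ckm were at or near 0.

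Cox6b2, an isoform first known from testis, was at 0, 0, 0.113 and 0 FPKM in the LD livers and 0.422, 0.0855, 0.217 and 0.511 FPKM in the ADV livers. In kidney it was at 3.06, 2.89, 3.11 and 3.27 FPKM in the LD kidneys and 8.18, 4.91, 7.82 and 0.877 FPKM in the ADV kidneys. The log2 difference of 4.12 (SE 0.40) rests on the pseudocount, since 3 LD livers were at 0. The common isoforms were far more abundant, with 233 ± 14.8 FPKM in LD liver and 440 ± 94 FPKM in LD kidney for Cox6b1, 339 ± 15.2 and 444 ± 48.5 FPKM for Cox6a1, and 128 ± 18.7 and 235 ± 5.18 FPKM for Cox7a2 (SD, n = 4 each). Cox7a2l, which helps complexes III and IV to join into supercomplexes, was at 85.9 ± 5.46 and 103.6 ± 8.72 FPKM. Cox8a, with 312 ± 29.3 and 332 ± 51.9 FPKM, overlapped between the organs in the LD mice, whereas Cox8b and Cox8c stayed below 1 FPKM in all libraries.

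For the c subunit of ATP synthase, which forms the turning ring, Atp5g1, Atp5g2 and Atp5g3 encode the same mature protein behind different targeting peptides. In the LD livers they stood at 111 ± 7.04, 85.9 ± 4.61 and 332 ± 26.2 FPKM (SD, n = 4), and in the LD kidneys at 123 ± 23.1, 64.9 ± 13.8 and 375 ± 30.1 FPKM (SD, n = 4). Atp5g3 was the most abundant in every library. The order of Atp5g1 above Atp5g2 held in every library as well. In A115 kidney they were at 4.35, 3.74 and 192 FPKM. To show how genes for the same mature protein differ in their bases, the last 225 bases of their coding sequences are shown, from chr11:96073107-96073635 and chr2:73908596-73909296 (minus strands, GRCm38), with G and C in capitals. They are identical at 180 of 225 positions (80%), with 54.7% G+C in Atp5g1 and 45.8% in Atp5g3.

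Atp5g1: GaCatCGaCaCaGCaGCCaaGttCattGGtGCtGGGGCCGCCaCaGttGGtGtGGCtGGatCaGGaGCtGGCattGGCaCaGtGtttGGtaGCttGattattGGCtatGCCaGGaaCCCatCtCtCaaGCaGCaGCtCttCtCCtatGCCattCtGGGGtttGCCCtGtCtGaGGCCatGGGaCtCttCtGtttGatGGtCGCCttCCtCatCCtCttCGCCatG
Atp5g3: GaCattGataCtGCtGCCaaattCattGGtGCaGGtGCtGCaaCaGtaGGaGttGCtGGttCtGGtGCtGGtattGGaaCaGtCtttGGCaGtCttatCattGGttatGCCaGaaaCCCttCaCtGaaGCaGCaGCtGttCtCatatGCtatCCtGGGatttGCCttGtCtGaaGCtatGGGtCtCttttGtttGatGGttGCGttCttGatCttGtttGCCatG

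In A115, Atp5g1, Atp5g2 and Atp5g3 were at −4.77, −4.05 and −0.96 against the LD kidney mean on the log2 scale, while the G+C content of their whole transcripts was 55.1%, 50.5% and 50.4%. Atp5g2 thus lay near Atp5g1 in level change and near Atp5g3 in composition.

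Whether the response to ADV differed between the organs was tested by the interaction term of the same fit. Of the members, 0 passed, as did 0% of all genes. At an unadjusted p under 0.05, 1 nuclear-encoded member had a more positive ADV effect in kidney and 1 in liver, against 0.701% and 3.01% of all genes. These were Ndufa6, with 0.44 (SE 0.20), and Ndufb4, with −0.50 (SE 0.20). Without mouse A115, 7 nuclear-encoded members passed with a more positive ADV effect in kidney and 0 with one in liver, against 2.2% and 0.541% of all genes, namely Atp5d, Uqcr11, Atp5g1, Ndufv1, Cox8a, Cox6a1 and Sdhd. This fit did not use the pairing of the organs by mouse. It was not repeated with the mouse as a block or with the correction for G+C content.

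Genes that build, supply or regulate the complexes were taken from 6 lists. In neither organ did any of their genes pass the test with all libraries. At an unadjusted p under 0.05 in the liver, 4 of the 44 assembly factors tested were higher and 1 lower, 4 of 20 genes of mitochondrial DNA maintenance and transcription were higher and 1 lower, and 1 of 21 genes of mitochondrial RNA processing, 1 of 78 of the mitochondrial ribosome and 1 of 10 regulators of biogenesis were higher, beside the 8.65% higher and 3.13% lower of all genes. Ndufaf2, an assembly factor of complex I, was at 11.8, 13.1, 10.7 and 11.3 FPKM in the LD livers and 14.5, 15.0, 14.4 and 14.4 FPKM in the ADV livers. Primpol, a primase and polymerase that also acts in mitochondria, was at 0.951, 1.08, 0.830 and 0.815 FPKM and at 1.40, 1.30, 1.70 and 1.39 FPKM. Neither pair of groups overlapped, but both genes were named for the smallest p of their list, so that this is a description. Log2 fold changes were 0.32 (SE 0.09, adjusted p = 0.311) and 0.61 (SE 0.16, adjusted p = 0.296).

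Among the others, the smallest p in liver belonged to Pnpt1 (log2 fold change 0.29), Mrpl22 (0.29), Gabpb1 (0.50) and Atpif1 (0.50), with adjusted p between 0.326 and 0.443. In kidney they were Cox19 (0.37), Rrm2b (−0.35), Grsf1 (−0.24), Mrpl52 (0.86), Perm1 (0.40) and Slc25a4 (0.52), each with an adjusted p of 0.9999. Slc25a4, the ADP/ATP carrier that exchanges the product of complex V, was at 165, 169, 174 and 166 FPKM in the LD kidneys and 256, 207, 243 and 260.3 FPKM in the ADV kidneys. Its groups did not overlap, in a gene named for its small p. Without A115, 11 of 44 assembly factors rose and 1 fell, 22 of 78 genes of the mitochondrial ribosome rose and 1 fell, and 4 of 21 genes of RNA processing rose and 1 fell, beside the 16.2% and 2.68% of all genes in this fit. In the other lists 1 of 21 genes of maintenance and transcription rose and 1 fell, and 2 of 11 regulators and 2 of 17 partners of the chain rose and 0 fell. Rescaled to the genes off chrM, the counts were 6 that rose and 2 that fell for assembly factors, 16 and 3 for the ribosome, 3 and 4 for RNA processing, 0 and 2 for maintenance and transcription, 1 and 0 for the regulators and 2 and 2 for the partners, beside the 11.2% and 5.25% of all genes. With the correction for G+C content 0 genes of any list passed.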

How the data were processed

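RNA of liver and kidney from the same 8 mice was sequenced after poly(A) selection with a stranded kit. By the study's methods and the submitters' processing notes, the authors trimmed reads with Trimmomatic, mapped them to GRCm38/mm10 with STAR 2.5.4b, removed reads of mapping quality under 10 and used HOMER to count fragments over the exons of the UCSC canonical gene set. The deposited values are FPKM per gene, normalized by the authors. Multiplied by exon length and library total, 100% of the values were multiples of 0.5 fragments within 0.02. FPKM are not counts, so the count test of the study's methods was not used, and limma-voom on the recovered fragments served as an alternative. Groups came from the sample labels, and the exact permutation tests are two-sided.

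Values were taken as log2(FPKM + 0.1), so that fold changes of low genes are understated. Genes were tested when mean FPKM times exon length in kilobases exceeded 0.5 over the libraries of the organ, which 12835 genes did in liver and 14452 in kidney, or in either organ (14968) for the fit of all 16 libraries. limma 3.58.1 in R 4.3.3 was fitted to all of them with an intensity trend and Benjamini-Hochberg adjustment at 0.05. The scripts were tested on simulated data. Rescaled values are FPKM divided by the share of fragments off chrM. Within an organ the p-values measure the spread between separate mice. The main fits of all 16 libraries did not use the pairing, and their p-values treat the organs of a mouse as independent. The organs of a mouse are paired by animal, and the correlation of their deviations from the group means ran from −0.02 to 0.55 over 12319 genes.

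The members, lists and tests were chosen with earlier results of these data known. The design assumed 13 chrM protein genes, whereas the tables hold 9 chrM rows, 7 of them with protein genes, and these were used. Named genes were the chrM rows, members called, the most abundant and most changed member of each complex, the largest organ differences, the tissue isoforms and the gene of smallest p in each list. Genes named from the fits without A115 or for groups that do not overlap were chosen after seeing the data. Alternatives were other pseudocounts, filters and scalings, each mouse left out, the mouse as a replicate block and, chosen after seeing the data, a loess on G+C content and the combinations with A115 left out. Sequences and G+C content came from GENCODE transcripts of GRCm38.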

Additional observations from a re-analysis of the deposited data

Results flagged for a closer look

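In groups of 4 libraries, the gap between the extreme library and its nearest neighbour was compared with the whole range of the group. Of 156 groups, 22 passed Dixon's critical value, and chance marks about 1 in 20 independent groups. These groups share their libraries and some members were named for large changes, so that the share cannot be read against chance. A115 kidney was the highest library in 5 of the 22 and the lowest in 10. In the ADV kidneys the ratio was 0.848 for the chrM share, where A115 was high, and 0.957 for the nuclear-encoded share, where it was low. A115 was high for mt-Rnr2/mt-Nd1 (0.91), mt-Nd2 (0.913), mt-Atp8/mt-Atp6 (0.836) and Uqcrb (0.872). It was low for Sdhc (0.921), Sdhd (0.982), Uqcr11 (0.832), Atp5b (0.873), Ndufa7 (0.886), Ndufb8 (0.852), Cox7a1 (0.897), Cox6b1 (0.878) and Cox4i1 (0.832).

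In the ADV livers A94 was low in the balance (0.841) and in mt-Nd4l/mt-Nd4 (0.917) and high in Ndufa4l2 (0.842), and A91 was high in Ndufa6 (0.906). In the LD livers L65 was high in Atp5g3 (0.86) and L104 was low in Ndufa1 (0.873). In the LD kidneys L65 was high in the row antisense to mt-Rnr2 (0.888). Outside the members, the chromosome 1 row BC069931 over copies of mt-Atp6 and mt-Co3 was at 338.1 FPKM in A115 kidney.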

How the results depend on the processing

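For single members, no value under an alternative crossed the threshold in liver, out of 588, although the sign changed in 36 of them without a call. In kidney 711 of 748 values stayed on their side of the threshold, 26 passed it only under an alternative and 11 reversed, while the sign changed in 70 values of 24 of the 34 members named. Between the organs 269 of 297 stayed, 5 newly passed, 15 no longer passed and 8 reversed, with a changed sign in 14. Leaving out 1 mouse at a time gave 0 to 35 members called in kidney, 0 to 31 after rescaling and 0 to 7 for the difference between the organs, and the upper ends are the fits without A115. With A115 left out and rescaling together, 31 were called, and with A115 and A94 left out, 16. Under the median ratio, 33 members differed between the organs, against 65, beside 9824 and 11235 of all 14968 genes. After rescaling it was also 33 against 72, beside 9815 and 11958 of all genes.

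In kidney, some of the members examined changed sign and passed the test without A115. Their ranges with 1 mouse left out were −0.9983 to 0.9807 for Atp5g1, −0.8887 to 0.8214 for Atp5g2 and −0.8576 to 0.5673 for Ndufa7. They were −0.7666 to 0.4766 for Ndufb8, −0.4897 to 0.378 for Sdhc and −0.7824 to 0.3943 for Uqcrc1. All were positive without A115. Other members also changed sign, as Uqcr11 did without A115. With A115 left out and rescaling, Atp5g1, Atp5g2, Ndufa7 and Ndufb8 were at 0.8819, 0.7228, 0.4685 and 0.3777, and without A115 and A94 Atp5g1 was at 0.8887. Between the organs, such ranges were −0.312 to 0.6173 for Atp5g1 and −0.3601 to 0.3384 for Ndufa7. The median ratio took the median of all genes between the organs from 0.75 to 0.03. Atp5g3 (−0.3954), Ndufa4 (−0.3643) and Cox7a2l (−0.4042) then passed the limma test as lower in kidney, and Cox6a1 (−0.2032), Cox7a2 (−0.0171) and mt-Rnr1 (−0.08898) did not pass.

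With the mouse as a replicate block, 66 of the 87 members tested differed between the organs, beside 11417 of all 14968 genes. After rescaling 73 members did, beside 12142 of all genes. In the difference of the ADV effect 0 members and 0 genes passed. A planned balance without mt-Nd6, mt-Nd4l and mt-Atp8 had no single-gene values, and with the rows of mt-Nd4l/mt-Nd4 and mt-Atp8/mt-Atp6 left out instead the balance differed by −0.03 in liver, −0.22 in kidney and 0.59 between the organs. The log2 ratio of summed FPKM gave −0.008, −0.32 and 0.17, and the median over genes 0.17, −0.18 and 0.73. limma-voom on recovered fragments called 0 members in either organ, with and without rescaling. FPKM of low isoforms such as Cox6b2 rest on few fragments.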

Other observations

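In A115 kidney, 6 of the 78 nuclear-encoded members were above every LD kidney, which is 7.69%, beside 24.0% of all genes tested, and they were looked at after their values were seen. Uqcrb was at 842 FPKM there, against 336.9 to 351.7 FPKM in the LD kidneys. Ndufa6, Ndufc1 and Ndufs5, accessory subunits of complex I, were at 402, 150.6 and 157.6 FPKM, above the LD mean by 0.78, 0.70 and 0.64 on the log2 scale. Cox7a2l and Cox6c of complex IV were above it by 0.50 and 0.18. The G+C content of the 6 transcripts lay between 42.2% and 53.6%.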
